A study of Mus musculus with 8 samples.

Results

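Malat1, Neat1, Miat, Gas5, Snhg1, Snhg12, Mir17hg and Dnm3os are noncoding RNAs that act in the nucleus or serve as the precursor transcripts of small RNAs. They were taken by symbol from a table of read counts, and make up 8 of its 48440 entries. Each symbol stood on its own entry, and values in all 8 libraries were used.

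The study profiled cardiomyocytes purified from neonatal hearts of C57BL6/J mice. All pups were at postnatal day 2, and the labels name no genetic change and no treatment in any of them. There were 4 litters, and each gave 1 heart from a male and 1 from a female, so that the sexes can be compared over 4 libraries each and the litters over 2 libraries each. The cells of a litter share their dam and whatever handling a litter shared, and these cannot be told apart from the litter itself.

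Library totals ran from 14226342 counts (the female of litter 3) to 24910243 (the male of litter 1). Xist and Ddx3y, an RNA made from the inactive X chromosome and a Y-linked gene, followed the labelled sex in all 8 libraries. Mitochondrial genes took 13.4% to 15.2% of counts in 7 libraries and 18.5% in the male of litter 4. Cardiomyocyte markers (12 of 12 with counts in every library) summed to between 77960 and 99320 CPM (a count over its library's TMM-scaled total, brought to the same size in all libraries), against 44.2 to 306 for 10 fibroblast markers, 18.4 to 166 for 10 endothelial markers, 905 to 1534 for 9 mural markers and 98.6 to 532 for 7 erythroid markers. The defining markers of cardiomyocytes were thus abundant in every library, and those of other cells were present at lower summed levels. In bulk samples of this kind, fewer cells of a type and less RNA per cell cannot be told apart.

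As background, Malat1 and Neat1 are transcribed from adjacent loci and stay in the nucleus, where Malat1 gathers in speckles rich in splicing factors and the long form of Neat1 is the scaffold of paraspeckles. Gas5, Snhg1 and Snhg12 are host genes: small nucleolar RNAs (snoRNAs), which guide chemical modification of ribosomal and other RNAs, are cut from their introns, while the spliced exons are commonly degraded by nonsense-mediated decay. Mir17hg carries the miR-17-92 cluster, a driver of proliferation that has been studied in heart growth, and Dnm3os carries miR-199a and miR-214. Miat is a nuclear RNA that was named for its link to myocardial infarction.

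The snoRNA host genes belong to the 5′ terminal oligopyrimidine class, whose transcripts begin in a run of C and T, as do those of ribosomal proteins. Their start regions are shown because this class, which the choice of genes did not use, is the reason for setting them beside other genes of the class further on. Each run below covers 40 bases before and 30 bases from a transcript start given by RefSeq on GRCm38.p6, plus strand, at chr1:161035126-161035195, chr19:8723447-8723516 and chr4:132308638-132308707 in the order printed. Capitals mark TATA where it was found between 40 and 20 bases before the start, and the longest run of C or T that reached within 12 bases of the start.
Gas5: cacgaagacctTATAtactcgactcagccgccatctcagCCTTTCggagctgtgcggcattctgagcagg
Snhg1: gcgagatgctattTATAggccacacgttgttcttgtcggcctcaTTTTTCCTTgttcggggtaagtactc
Snhg12: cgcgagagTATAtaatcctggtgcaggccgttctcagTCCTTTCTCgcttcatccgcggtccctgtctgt
TATA stood in the window of all 3 and in 5.81% of 32851 RefSeq start regions. It reads the same on both strands. The pyrimidine runs were 6, 9 and 9 bases long, lengths reached in 32.7%, 10.7% and 10.7% of start regions, so the run in Gas5 is not rare. The marked run of Snhg1 begins 4 bases downstream of its annotated start, so the transcript as annotated does not open with it. Neither feature is particular to these hosts: the RefSeq start region of Dnm3os, which hosts no snoRNA, also had TATA and a longer run, of 16 bases. RefSeq gives Gas5 another start upstream, with no TATA in its window and a run of 3 bases, as long in 87.0% of start regions, and the table does not tell which start its counts came from.

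Mir17hg was counted as a host transcript, and its mature microRNAs are shown to say what that transcript encodes. Of the 11 mature microRNAs that RefSeq places in it, those named for the guide arms are listed, with the seed (bases 2 to 8, which pair with targets) in capitals.
miR-17-5p: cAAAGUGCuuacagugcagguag
miR-20a-5p: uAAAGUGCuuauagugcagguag
miR-18a-5p: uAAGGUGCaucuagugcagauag
miR-19a-3p: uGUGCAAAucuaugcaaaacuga
miR-19b-3p: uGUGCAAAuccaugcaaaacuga
miR-92a-3p: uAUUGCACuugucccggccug
By seed, miR-17-5p pairs with miR-20a-5p and miR-19a-3p with miR-19b-3p, while miR-18a-5p and miR-92a-3p each stand alone within this host.

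The small RNAs themselves were hardly counted. GENCODE M21 annotates 9 snoRNAs inside Gas5, 8 inside Snhg1 and 4 inside Snhg12, 6 microRNAs inside Mir17hg and 2 inside Dnm3os, and all of them have entries in the table. Together they held 1 count, for Snora16a inside Snhg12. For the hosts, every value below is that of the host entry. Each of these small RNAs overlaps annotated exons of its host on the same strand, and how reads in such overlaps were counted is not known. Their low counts therefore do not tell whether the small RNAs were present.

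Malat1 was the most abundant of the 8 RNAs. Together the 8 took 0.144% to 0.215% of a library's counts, and Malat1 made up 82.8% to 91.5% of that. Per kb of annotated exon, Malat1 averaged 223 ± 35.7 CPM (SD, n = 8), Gas5 16.9 ± 2.85 and Snhg1 8.32 ± 1.76. Neat1 followed at 6.41 ± 2.49 CPM per kb, Snhg12 at 4.61 ± 1.08 and Mir17hg at 0.761 ± 0.200. The ranges of Malat1 and Gas5, of Gas5 and Snhg1, and of Snhg12 and Mir17hg did not overlap, while Neat1 overlapped with both Snhg1 and Snhg12. Annotated transcripts of Neat1 run from 711 to 20771 bases, and its place in this order depends on which are made. Over the longest transcript of each gene, Snhg12 stood at 7.21 CPM per kb, above Neat1. Over the shortest, Neat1 stood at 187, above Gas5 at 184 and Snhg1 at 79.2. The per-kb values of the snoRNA hosts depend on the transcript used as well. Dnm3os and Miat were near 0.

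Most of the RNAs differed between litters, and litter 3 had the most calls. In litter 3 Malat1 and the 3 snoRNA hosts were higher than in the other litters and Neat1 was lower, in both pups. The litter test (edgeR's quasi-likelihood test of the 3 litter terms with sex in the model, Benjamini-Hochberg adjusted over 13771 genes) called 5 of the 6 RNAs that had enough counts to be tested, against 32.1% of all tested genes. For litter 3 against the mean of the other 3 litters, 5 of 6 were called, 4 higher and 1 lower, against 28.3% of all genes (13.6% higher and 14.8% lower). All 5 kept the call when either library of litter 3 was left out. With the whole of litter 3 left out, the litter test still called Malat1, Neat1 and Gas5 (edgeR adjusted p = 0.0268, 0.0194 and 0.0123) and no longer Snhg1 and Snhg12. By sex, 0 of 6 were called in the same tool, against 0.0436% of all genes (0.0363% higher in males and 0.00726% lower).

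**Figure D1:**
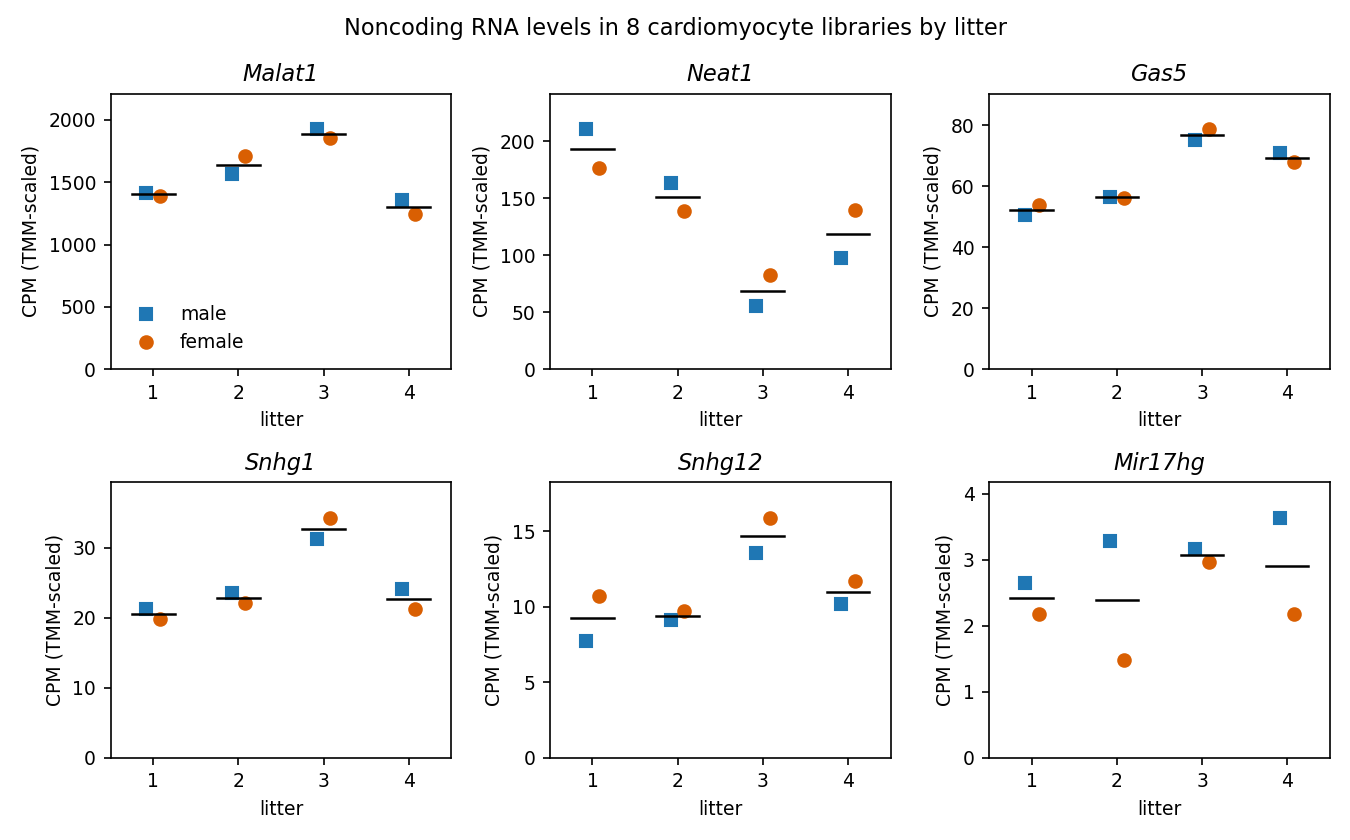
Levels of the 6 tested RNAs in CPM (vertical axes, linear and from 0, with a scale of their own in each panel) by litter (horizontal axes), with squares for males, circles for females and a bar at the litter mean. In litter 3 both libraries stand highest for Malat1, Gas5, Snhg1 and Snhg12 and lowest for Neat1, while the points of Mir17hg overlap between litters.

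Malat1 (chr19:5795690-5802672, minus strand, GENCODE M21 on GRCm38) stood at 1412 and 1391 CPM in the male and the female of litter 1, 1569 and 1712 in litter 2, 1923 and 1858 in litter 3, and 1359 and 1244 in litter 4. Litter 3 was the highest and litter 4 the lowest, and the ranges of the 4 litters did not overlap. The litter means were 1402 ± 14.6, 1641 ± 101, 1890 ± 45.6 and 1302 ± 81.2 CPM (SD, n = 2 each), and the litter coefficients spanned 0.54 on the log2 scale (edgeR adjusted p = 0.00105). Against the other litters, litter 3 was higher by 0.39 ± 0.060 (log2, SE; edgeR adjusted p = 0.000600). Litter 4 was lower, at -0.33 ± 0.062 (edgeR adjusted p = 0.00908), a call that was lost without its female (edgeR adjusted p = 0.0882). No neighbours in the order litter 4, 1, 2, 3 differed past the threshold (edgeR adjusted p from 0.0737 to 0.37), although litters 1 and 3 did (edgeR adjusted p = 0.00143). Of 100-base windows of its longest transcript, 5.14% also occur in transcripts of other genes. Among these, Gm37376 lies on the opposite strand within the locus and held at most 4 counts in a library.

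Neat1 (chr19:5824708-5845478, minus strand) lies 22035 bases from Malat1. In litter 3 it moved the other way, and in litter 1 the signs also differed (-0.18 for Malat1, not past the threshold, and 0.86 for Neat1, past it), while against the mean of the other 3 litters both had a positive difference in litter 2 (0.12 for Malat1 and 0.38 for Neat1, log2, neither past the threshold) and both a negative one in litter 4 (-0.33, past the threshold, and -0.09, not past it). Its levels were 210 and 177 CPM in the male and the female of litter 1, 163 and 139 in litter 2, 55.1 and 82.9 in litter 3, and 97.7 and 140 in litter 4. Both libraries of litter 3 were below the other 6 and both of litter 1 were above them, while litters 2 and 4 overlapped. With litter means of 194 ± 23.8, 151 ± 17.3, 69.0 ± 19.6 and 119 ± 29.95 CPM (SD, n = 2 each), Neat1 had the widest spread among the 6 tested RNAs: its litter coefficients spanned 1.51 on the log2 scale (edgeR adjusted p = 0.000643), against a median span of 0.37 over all tested genes. In litter 3 it was lower by -1.15 ± 0.16 (log2, SE; edgeR adjusted p = 0.000281), and in litter 1 higher by 0.86 ± 0.14 (edgeR adjusted p = 0.00196). The call in litter 1 was lost without the male of that litter (edgeR adjusted p = 0.0978). Between neighbours in the order, litters 3 and 4 differed (edgeR adjusted p = 0.0098), and litters 4 and 2 (edgeR adjusted p = 0.247) and 2 and 1 (edgeR adjusted p = 0.368) did not pass. The counts of Neat1 cannot be split between its short form and the long, paraspeckle-forming one.

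The ratio of the neighbouring RNAs within a library does not depend on scaling, and does not tell which of them moved. The count of Malat1 per count of Neat1 was 6.71 and 7.87 in the male and the female of litter 1, 9.63 and 12.4 in litter 2, 34.9 and 22.4 in litter 3, and 13.9 and 8.88 in litter 4. Both libraries of litter 3 stood above the other 6. Over the 8 libraries the log2 levels of the pair had a Pearson r of -0.643 and a Spearman rho of -0.524, as a description of points that share litters and sexes in pairs. Frmd8, a protein-coding neighbour on the same stretch of chromosome 19, had a litter span of 0.09 (log2) and did not pass the litter test (edgeR adjusted p = 0.931).

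**Figure D2:**
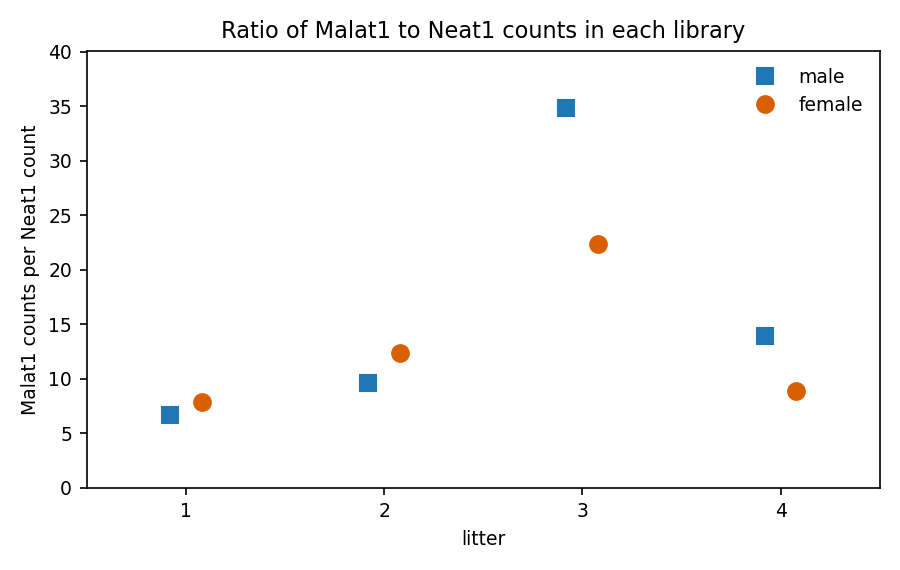
Malat1 counts per Neat1 count (vertical axis, linear, from 0) in each library by litter (horizontal axis), with squares for males and circles for females. The litter 3 libraries, at 34.9 and 22.4, are above the other 6, which lie between 6.71 and 13.9.

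Miat (chr5:112213228-112229395, minus strand) was not detected beyond isolated reads. It had 1 count in the male of litter 2, 1 in the female of litter 3 and 0 in the other 6 libraries. A floor of 3 counts per library corresponds to 0.120 to 0.206 CPM, and no library reached it, so no level can be given in any of them. It did not pass the filter on low counts. Without the filter its litter test gave an edgeR adjusted p of 0.929 over 24853 entries.

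Gas5 (chr1:161034422-161038539, plus strand) hosts snoRNAs of the C/D box kind and is known for building up when growth stops. It stood at 50.7 and 53.7 CPM in the male and the female of litter 1, 56.7 and 56.2 in litter 2, 75.2 and 78.6 in litter 3, and 70.9 and 68.0 in litter 4. Litters 1 and 2 were low and litters 3 and 4 high, with no overlap between any pair of litters. The means were 52.2 ± 2.16, 56.4 ± 0.334, 76.9 ± 2.45 and 69.4 ± 2.03 CPM (SD, n = 2 each), and the litter coefficients spanned 0.56 on the log2 scale (edgeR adjusted p = 0.000807). Gas5 was higher in litter 3 by 0.38 ± 0.062 (log2, SE; edgeR adjusted p = 0.000889) and lower in litter 1, at -0.36 ± 0.064 (edgeR adjusted p = 0.00366). Of the neighbours in the order litter 1, 2, 4, 3, litters 2 and 4 differed (edgeR adjusted p = 0.0404) and the others did not pass (0.552 and 0.196). The litter 1 call was lost without the male (edgeR adjusted p = 0.133) or the female (0.0554) of litter 1.

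The locus of Gas5 overlaps the start of Zbtb37 on the other strand, though no exons overlap, and no source used here says whether reads were counted by strand. Per count of Zbtb37, Gas5 had 0.990 and 1.06 counts in the male and the female of litter 1, 1.11 and 1.03 in litter 2, 1.33 and 1.39 in litter 3, and 1.62 and 1.503 in litter 4. The ratio was higher in every library of litters 3 and 4 than in any of litters 1 and 2. Zbtb37 itself was higher in litter 3 by 0.20 and lower in litter 4, at -0.26 (log2, both past the threshold), so that in litter 4 its difference had the opposite sign to that of Gas5 (0.19 ± 0.062, edgeR adjusted p = 0.0738).

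Snhg1 (chr19:8723475-8726443, plus strand) hosts a further set of C/D box snoRNAs. Its levels were 21.3 and 19.8 CPM in the male and the female of litter 1, 23.5 and 22.1 in litter 2, 31.2 and 34.3 in litter 3, and 24.1 and 21.2 in litter 4. The 2 libraries of litter 3 stood apart from all others, and litter 4 overlapped with litters 1 and 2. Litter 3 was higher by 0.57 ± 0.080 (log2, SE; edgeR adjusted p = 0.000339), and litter 1 was lower, at -0.32 ± 0.083 (edgeR adjusted p = 0.0255). The litter test gave an edgeR adjusted p of 0.00171, and only litters 2 and 3 among neighbours in the order 1, 4, 2, 3 differed (edgeR adjusted p = 0.0039). Without litter 3 the litter test no longer called Snhg1 (edgeR adjusted p = 0.426), and the litter 1 call was lost without its male (0.19) or its female (0.292). Slc3a2, the neighbouring gene for an amino acid transporter subunit, did not pass the litter test (edgeR adjusted p = 0.116). Snhg1 had 1.19 counts per Slc3a2 count in both libraries of litter 3 and 0.855 to 1.14 in the other 6.

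Snhg12 (chr4:132308623-132311024, plus strand) hosts mostly H/ACA box snoRNAs, which guide pseudouridylation. It was at 7.75 and 10.7 CPM in the male and the female of litter 1, 9.11 and 9.71 in litter 2, 13.5 and 15.9 in litter 3, and 10.2 and 11.7 in litter 4. Again the litter 3 libraries were the highest, without overlap, and litters 1, 2 and 4 lay close together. The difference in litter 3 was 0.58 ± 0.11 (log2, SE; edgeR adjusted p = 0.00197). Among neighbours, litters 4 and 3 differed (edgeR adjusted p = 0.0395), and litters 1 and 2 (0.928) and 2 and 4 (0.365) did not pass. The litter test called Snhg12 (edgeR adjusted p = 0.00673) and lost the call without litter 3 (0.365). With 183 to 312 counts per library, Snhg12 was measured less precisely than Gas5 (1143 to 1733) or Snhg1 (432 to 720).

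**Figure D3:**
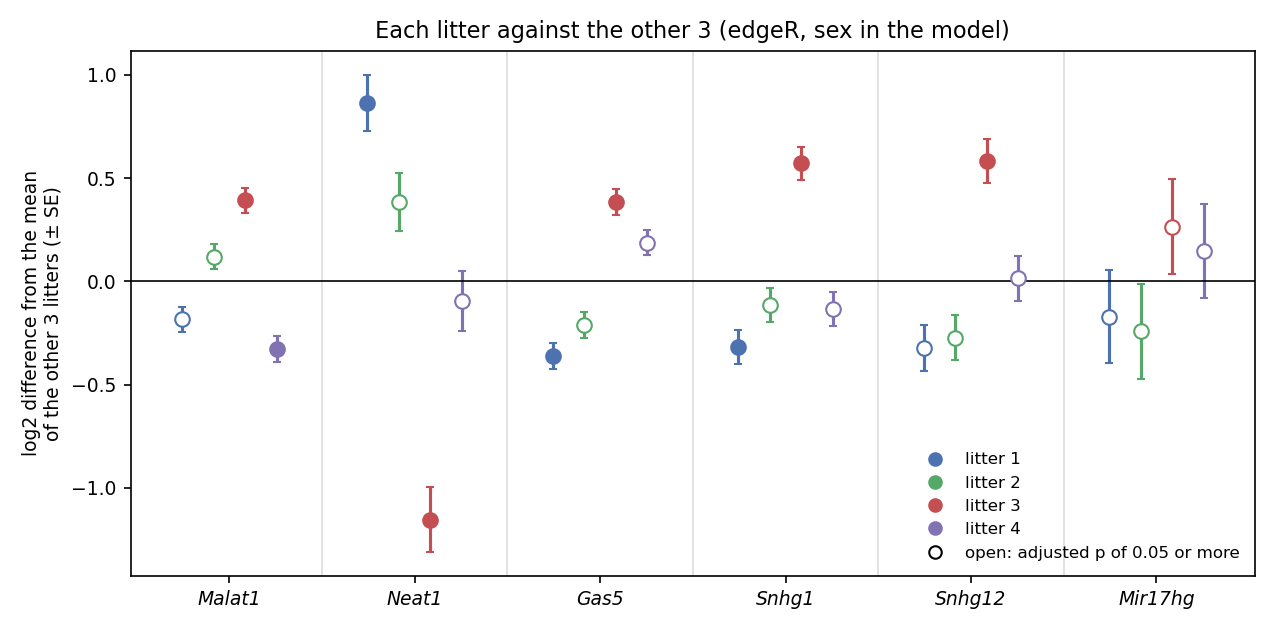
Difference of each litter from the mean of the other 3 (vertical axis, log2, with SE bars from the edgeR fit) for the 6 tested RNAs, filled where the adjusted p is under 0.05. In litter 3 Malat1, Gas5, Snhg1 and Snhg12 lie at 0.38 to 0.58 and Neat1 at -1.15, all filled, and the 4 contrasts of an RNA share libraries.

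In the other litters fewer of the 6 were called. Litter 1 had 3 calls, against 13.3% of all genes: Neat1 was higher (as were 7.86% of genes), and Gas5 and Snhg1 were lower (as were 5.41%). Litter 4 had 1 call, against 10.5%: Malat1 was lower, as were 5.8% of genes. Litter 2 had 0 by edgeR, against 4.18% of all genes (3.3% higher and 0.879% lower), while Neat1 (0.38 ± 0.14), Gas5 (-0.21 ± 0.063) and Snhg12 (-0.27 ± 0.11) had an unadjusted p under 0.05 there. Neat1 passed the threshold in litter 2 without the filter on low counts (edgeR adjusted p = 2.2e-06) and without the female of litter 3 (0.0446). Malat1 passed in litter 1, where it was lower by -0.18 ± 0.061 and had missed the threshold (edgeR adjusted p = 0.0692), with no filter (0.0137) and when either the litter 2 male (0.0394) or the litter 4 female (0.033) was dropped.

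Over the 8 libraries, log2 levels of Gas5 had a Pearson r of 0.803 (Spearman rho 0.81) with Snhg1 and 0.859 (rho 0.786) with Snhg12, and Snhg1 had 0.772 with Snhg12, where the rho was 0.405. Neat1 had an r of -0.89 (rho -0.905) with Gas5, -0.85 (rho -0.81) with Snhg1 and -0.782 (rho -0.714) with Snhg12. Malat1 had 0.792 (rho 0.667) with Snhg1 but 0.381 (rho 0.357) with Gas5. In litter 4 the hosts lay apart, with Gas5 at 0.19, Snhg1 at -0.14 and Snhg12 at 0.01 (log2, none past the threshold). These are descriptions over n = 8 libraries that pair by litter, and both libraries of litter 3 lie at an end of the range for Neat1, Malat1 and each host.

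Among other genes, those most like each RNA in log2 level over the 8 libraries were Dusp23 (Pearson r = 0.98), Slc25a16 and Gm5112 for Malat1, and Cenpl (r = 0.989), Arhgef39 and Spc25 for Neat1. For Gas5 they were Golga5 (r = 0.989), Ubxn6 and Cyb561d2, for Snhg1 Mbtd1 (r = 0.995), Abca1 and Spon1, and for Snhg12 B3gntl1 (r = 0.973), Scyl3 and Ric8a. For Mir17hg they were Mff (r = 0.966), Capn6 and Taf1d. With 8 libraries such values are common: 33 (Mir17hg) to 339 (Snhg1) of 13770 genes had an r over 0.9 with a given RNA.

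Cell markers moved with litter 3 as well, where 13.6% of all genes were higher and 14.8% lower. There, 8 of 10 fibroblast markers were lower and 0 higher, with a summed level of 44.2 to 63.9 CPM against 130 to 306 in the other 6 libraries, and 7 of 10 endothelial markers were lower, at 20.6 to 21.4 CPM against 18.4 to 166. Of 9 mural markers 5 were lower, at 905 to 929 CPM against 1342 to 1534. Of 12 cardiomyocyte markers 2 were higher and 5 lower, with a sum of 77960 to 80450 CPM against 88350 to 99320. Epicardial markers (1 of 6 tested higher, 2 lower) summed to 23.5 and 23.6 CPM against 14.3 to 19.5, erythroid markers (2 of 6 higher) to 185 and 532 against 98.6 to 247, macrophage markers (0 of 3 called) to 6.64 and 10.2 against 5.75 to 9.57, and Schwann and neural markers (0 of 1 called) to 13.3 and 13.9 against 10.3 to 14.3. No marker was at 0 in every library. Markers moved in other litters too: in litter 1, 3 of 10 fibroblast markers were higher, of 12 cardiomyocyte markers 3 were higher and 2 lower, and of 9 mural markers 1 was higher and 2 lower (7.86% and 5.41% of all genes). In litter 2, 10 of 10 endothelial, 7 of 10 fibroblast and 4 of 9 mural markers were higher (3.3% of all genes). In litter 4, 6 of 10 fibroblast markers were higher. Of 12 cardiomyocyte markers 6 were higher and 2 lower there, and of 9 mural markers 3 were higher and 1 lower (4.71% and 5.8% of all genes). The part of these shifts in the levels of Neat1, Malat1 and the hosts was not tested.

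Other snoRNA host genes were measured to see whether the movement of Gas5, Snhg1 and Snhg12 was common to the class. Of 15 tested genes on that list, 3 (20.0%) passed the litter test, against 32.1% of all genes. In litter 3, 3 were higher and 0 lower, against 13.6% and 14.8% of all genes, and the median difference of the list was 0.13 (log2) against 0.00 over all genes. The 3 were Zfas1, higher by 0.99 ± 0.077 (SE; edgeR adjusted p = 5.25e-06), Epb41l4aos, by 0.93 ± 0.14 (edgeR adjusted p = 0.000600), and Snhg6, by 0.48 ± 0.093 (edgeR adjusted p = 0.00265). Zfas1 stood at 45.5 and 54.5 CPM in litter 3 and at 20.8 to 32.3 in the other 6 libraries. All 3 were lower in litter 1, where 0 of the list were higher, against 5.41% and 7.86% of all genes. In litter 2, 2 of the 15 were lower and 0 higher, against 0.879% and 3.3% of all genes. These contrasts share libraries with that of litter 3. The list also holds Rmrp and Rpph1, which are catalytic RNAs and host no snoRNA, and neither passed. Terc, the RNA of telomerase, is on the list too, hosts no snoRNA and was not called in litter 3.

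**Figure D4:**
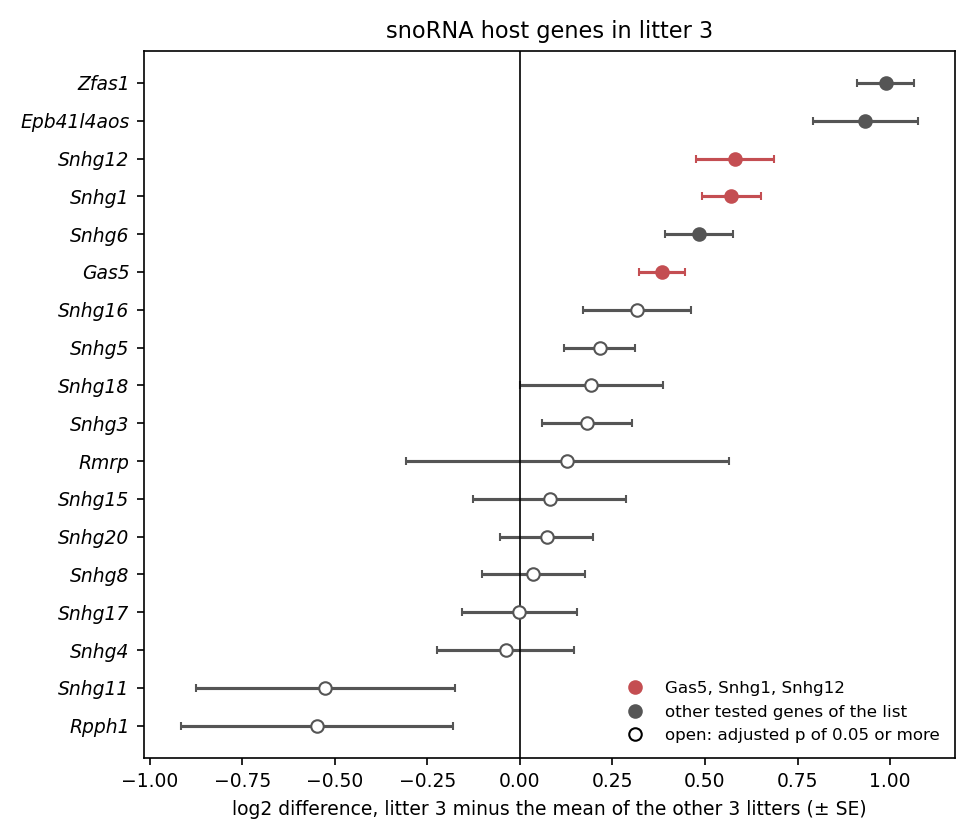
Difference of litter 3 from the mean of the other 3 litters (horizontal axis, log2, with SE bars) for Gas5, Snhg1 and Snhg12 in red and 15 other tested genes of the list in grey, filled where the adjusted p is under 0.05. The filled genes are Gas5, Snhg1, Snhg12, Zfas1, Epb41l4aos and Snhg6, all to the right of 0.

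Genes of the oligopyrimidine class that encode ribosomal proteins and translation factors mostly differed between litters. Of 31 tested, 28 (90.3%) passed the litter test. By litter, 22 were higher and 0 lower in litter 4 (71.0%, against 4.71% of all genes higher), and 8 were higher and 1 lower in litter 3 (13.6% and 14.8% of all genes). In litter 2, 11 were lower and 0 higher (35.5%, against 0.879% of all genes lower), and in litter 1, 7 were lower and 1 higher (5.41% and 7.86% of all genes). Eef2, the factor that moves the ribosome along, was higher by 0.35 in litter 4 and 0.18 in litter 3, and Rpl32 by 0.29 and 0.31, all past the threshold. Eef1g was higher in litter 4 by 0.26 and lower in litter 3, at -0.46. Npm1, a nucleolar protein, was higher in litter 3 by 0.39 and did not pass in litter 4 (0.12). None of the 3 snoRNA hosts was called in litter 4. There Gas5 was at 0.19, Snhg1 at -0.14 and Snhg12 at 0.01, against a median of 0.25 (log2) over the 31 genes. In litters 1, 2 and 3 the medians were -0.14, -0.23 and 0.10, and each of the 3 hosts had the sign of the median. Of 14 tested genes next to the 8 loci, 5 (35.7%) passed the litter test, a share near the 32.1% of all genes, and Zbtb37 was among them.

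Genes for proteins that work with the snoRNAs were set beside all genes, and whether their shares differ from that of all genes was not tested. Among 16 tested genes for snoRNP proteins, 3 (18.8%, against 32.1% of all genes) passed the litter test, namely Nop58, Nop56 and Nop10. In litter 3, Nop58, a core protein of C/D box particles, was lower (-0.25) and no other gene of the list was called. Fbl, the methyltransferase (0.06), and Dkc1, the pseudouridine synthase (-0.05), did not pass there. Of 16 tested factors of nonsense-mediated decay, 2 passed the litter test (12.5%, against the same share): Smg1, the kinase that acts on Upf1, was lower in litter 4 (-0.28) and Eif4a3, of the exon junction complex, was lower in litter 3 (-0.21). In litter 3, 2 of the 16 were lower and 0 higher, against 14.8% and 13.6% of all genes. Upf1 (-0.19) and Upf2 (0.15) did not pass there.

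For the nuclear bodies of Malat1 and Neat1, 10 of 18 speckle genes (55.6%) and 7 of 16 paraspeckle genes (43.8%) passed the litter test, against 32.1% of all genes. In litter 3, 6 of 18 speckle genes were higher and 1 lower, against 13.6% and 14.8% of all genes. Srrm2, a scaffold of speckles, was higher in litter 3 by 0.24 ± 0.078 and lower in litter 4, at -0.45 ± 0.081, both in the direction of Malat1, and Srsf11 and Srsf5, splicing regulators, had the same signs in those litters (0.26 and -0.36, 0.17 and -0.42, all past the threshold). In litter 1, where Malat1 was at -0.18, 4 of 18 speckle genes were higher and 0 lower, against 7.86% and 5.41% of all genes, and Srsf5 was among those higher (0.23). Clk1, a kinase of splicing factors, was higher in litter 4 (0.33) and did not pass in litter 3 (0.05). Among 16 paraspeckle genes, 4 were higher and 2 lower in litter 3, against 13.6% and 14.8% of all genes. Zc3h6, a zinc finger protein, was higher by 1.04 ± 0.12 and Matr3, a nuclear matrix protein, by 0.29, opposite to Neat1. The 2 called lower had the sign of Neat1. The core proteins, looked up after their values were seen, were at 0.21 (Sfpq, past the threshold), 0.12 (Nono) and -0.08 (Pspc1) in litter 3.

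Of 16 tested genes on a list of other long noncoding RNAs, 6 (37.5%) passed the litter test, a share near the 32.1% of all genes. Mhrt, a heart RNA transcribed antisense to Myh7, had 0.71 ± 0.14 in litter 1 and -0.76 ± 0.15 in litter 3, both past the threshold and of the sign of Neat1. Reads of Mhrt and Myh7 cannot be told apart where they overlap unless counting used strand, and Myh7 itself moved the other way (2.74 in litter 3). Norad, a cytoplasmic RNA that binds Pumilio proteins, had 0.39 ± 0.12 in litter 3 and -0.79 ± 0.13 in litter 4, both past the threshold and of the sign of Malat1, and 0.22 in litter 1, not past it and of the opposite sign. Rian, an imprinted RNA, was lower in litter 3 (-0.39), and Peg13 did not pass in any single litter. Tug1 (0.14) and Firre (0.12) did not pass in litter 3.

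Mir17hg (chr14:115042879-115046727, plus strand) had few counts. There were 66 and 53 counts in the male and the female of litter 1, 79 and 33 in litter 2, 73 and 43 in litter 3, and 65 and 52 in litter 4. In CPM these were 2.65 and 2.18, 3.29 and 1.48, 3.17 and 2.96, and 3.63 and 2.18. The litters overlapped, and the litter test did not call it (edgeR adjusted p = 0.576), nor did any single litter. Of 7 genes known as activators of the cluster, 6 passed the litter test, against 32.1% of all genes: E2f2 (-1.37), E2f1 (-0.95) and Ccnd1 (-0.93) were lower in litter 3, where Myc was higher (0.67), and Mycn did not pass (-0.11). The difference of Mir17hg in litter 3 was 0.26 ± 0.23 (SE; edgeR adjusted p = 0.419), with values over the alternatives from -0.01 to 0.60, so at this depth neither direction could be told.

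Genes for the processing of microRNAs, which act on the transcript of Mir17hg and its products, differed between litters in 9 of 14 cases (64.3%, against 32.1% of all genes), and in litter 3, 7 were higher and 1 lower, against 13.6% and 14.8%. Ago2, the slicing Argonaute, was lower in litter 4 (-0.59) and higher in litters 1 and 2. Lin28b, an inhibitor of let-7 maturation, was higher in litter 3 (0.73), and Dgcr8, the partner of Drosha, was lower there (-0.51). Drosha and Xpo5, the exporter of hairpins, did not pass the litter test (edgeR adjusted p = 0.542 and 0.161). Among 9 tested genes on a list of other microRNA hosts, 3 (33.3%) passed, a share near the 32.1% of all genes: H19, the host of miR-675, was lower in litter 1 (-0.70) and higher in litter 2 (0.66), Dleu2, the host of miR-15a and miR-16-1, was lower in litter 3 (-0.45), and Mir22hg was higher in litter 1 (0.33).

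Dnm3os (chr1:162217623-162225550, plus strand, inside Dnm3 on the other strand) had 2 and 3 counts in the male and the female of litter 1, 9 and 3 in litter 2, 2 and 0 in litter 3, and 5 and 4 in litter 4. The highest value was 0.374 CPM, in the male of litter 2, and the value of 0 in the female of litter 3 allows up to 0.206 CPM. The floor of 3 counts was reached in 5 of 8 libraries, unlike for Miat, so Dnm3os was detected at a low level. It failed the filter, and without the filter its litter test gave an edgeR adjusted p of 0.629. Dnm3, on the other strand, had 1 to 9 counts per library. Of 4 tested genes on a list of Dnm3 and mesenchymal regulators, 2 passed the litter test, against 32.1% of all genes: Tbx18 was higher in litter 3 (0.83) and lower in litter 4 (-0.45), and Tcf21 was higher in litter 2 (1.39).

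Males and females did not differ past the threshold in any tested RNA. The male mean of Malat1 was 1566 ± 254 CPM and the female mean 1551 ± 283 (SD, n = 4 each), and Neat1 had 131 ± 68.8 in males and 135 ± 38.7 in females. For Gas5 the means were 63.3 ± 11.6 and 64.1 ± 11.5 CPM, and for Snhg1 25.0 ± 4.31 and 24.4 ± 6.68. The ranges of the sexes overlapped for each of the 6. Differences, male minus female, were 0.01 ± 0.15 (log2, SE) for Malat1, -0.03 ± 0.36 for Neat1, -0.02 ± 0.15 for Gas5 and 0.05 ± 0.18 for Snhg1, with an edgeR adjusted p of 1.00 in each case. With litter as a block the SEs were smaller, from 0.053 (Malat1) to 0.13 (Neat1), and these 4 RNAs did not pass there either (edgeR adjusted p from 0.694 to 0.925).

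Neat1 had no common direction by sex. The male was above the female in litters 1 and 2 (0.25 and 0.24, log2) and below her in litters 3 and 4 (-0.59 and -0.52). Pairing the pups by litter gave -0.14 ± 0.13 (edgeR adjusted p = 0.694). For Malat1 the same pairing gave 0.02 ± 0.053 (edgeR adjusted p = 0.925).

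Mir17hg and Snhg12 had the same sign in all 4 litters. For Mir17hg the male was higher, by 0.27, 1.10, 0.07 and 0.72 (log2) in litters 1 to 4, with 283 counts in the males and 181 in the females. The fit gave 0.54 ± 0.23 (SE), an unadjusted p of 0.0391 and an edgeR adjusted p of 1.00, and with litter as a block 0.56 ± 0.20 and an edgeR adjusted p of 0.347. For Snhg12 the male was lower, by -0.47, -0.09, -0.24 and -0.19, and the fit gave -0.24 ± 0.20, or -0.25 ± 0.094 with the block (edgeR adjusted p = 1.00 and 0.369). Neither passed in either fit. Without the block, Mir17hg was the 1 RNA of the 6 with an unadjusted p under 0.05, as were 306 of 13771 genes, and DESeq2 also called 0 of the 6. The fit with the block called 0 of the 6 as well, against 0.211% of all genes, and there both Mir17hg (0.0162) and Snhg12 (0.0219) had an unadjusted p under 0.05.

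**Figure D5:**
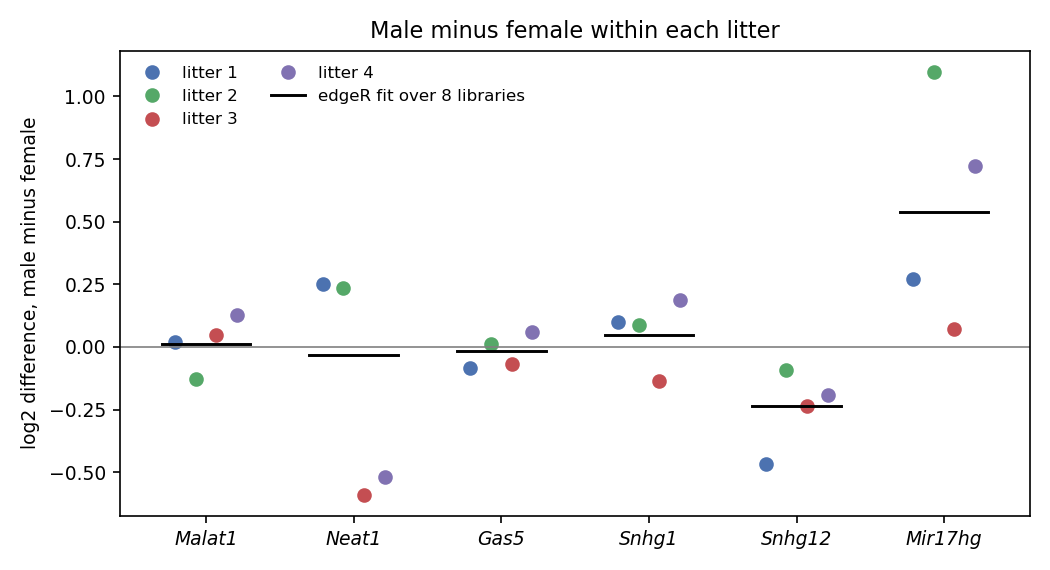
Male minus female difference within each litter (vertical axis, log2 of CPM; dots coloured by litter) for the 6 tested RNAs, with a bar at the edgeR estimate over 8 libraries. The dots of Mir17hg all lie above 0 and those of Snhg12 all below, while Neat1 has 2 on each side.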

How the data were processed

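RNA from 8 samples was sequenced as single-end reads of 100 bases, per the labels' protocols, from stranded libraries of total RNA, although the labels give the molecule as polyA RNA. The authors deposited whole-number read counts per gene symbol, not normalized. Per the submitters' processing notes, STAR 2.7.3a and mm10 were used; the counting program, the annotation and the strand setting are not given in the sources used here. Loci and exon lengths were taken from GENCODE M21 on GRCm38, the assembly behind mm10, and sequences from RefSeq tables.

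Counts were analysed with edgeR 4.0.16 in R 4.3.3 after filterByExpr on sex (13771 genes kept) and TMM scaling. Sex was fitted without a litter term (6 residual degrees of freedom), and litter with sex in the model (3 residual degrees of freedom), followed by each litter against the mean of the other 3, which share libraries. Benjamini-Hochberg adjustment ran over all tested genes with a threshold of 0.05, and the scripts were tested on simulated data. Standard errors are the absolute log2 difference over the square root of F. Correlations used log2 CPM with a prior count of 2. Alternatives changed the scaling, the filter, the tool (DESeq2 1.42.0), the sex term, mitochondrial genes, depth, libraries and litters. Named genes were all 8 RNAs and, per list, up to 4 genes with the widest litter span among those called and up to 2 not called. Terc and the core paraspeckle proteins were named outside this rule. The RNAs and lists were chosen with earlier results of these data known.

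Sample numbers are litters, per the labels, and so pair pups of opposite sex. With sex means removed, the correlation across genes within litters was 0.357 to 0.696, against -0.472 to 0.258 between litters. Removing these means tends to make values between litters negative when those within litters are positive, so part of the gap is built in. No library repeated another (chi-square per degree of freedom of 10.3 or more within a sex). P-values of the litter fit measure the spread between pups within litters once sex is fitted, with 2 per litter. Those of the sex fit without a litter term also take in the spread between litters. Floors cover counting error only.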

Additional observations from a re-analysis of the deposited data

Results flagged for a closer look

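Snhg1 in the female of litter 3, at 34.3 CPM, lay far from the other 3 females, which ranged from 19.8 to 22.1. The gap was 0.841 of the range of the 4 females, above Dixon's critical value for 4 samples. The male of the same litter, at 31.2 CPM, was the highest male. Of 14 groups of 4 examined, chance flags about 0.7.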

How the results depend on the processing

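Over 600 values of the 6 tested RNAs under the alternatives, 587 kept their side of the threshold and, where called, their direction, and none that had been called reversed. In litter 3 all 5 calls held in each of 14 alternatives. In the litter test 3 of 5 calls held without litter 3 and all 5 otherwise. Counts of called genes that moved by more than 1.5 times were, in litter 2, 1249 without the filter (with 1 of the RNAs), 345 with a mean of at least 50 counts and 365 without the sex term; in litter 4, 834 without the sex term; and by sex, 29 (0.211%) with litter as the replicate block, none of them among the 8 RNAs. The block was run for the sex comparison only, where it left 0 of the 6 RNAs called.

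Leaving out 1 library gave 5 to 7 genes by sex, 2964 to 4097 in the litter test, 359 to 1869 in litter 1 (0 to 4 of the RNAs), 153 to 752 in litter 2 (0 to 1), 1704 to 3791 in litter 3 (5) and 322 to 1302 in litter 4 (0 to 1). Leaving out a litter gave 1898 to 4586 genes in the litter test (3 to 5 of the RNAs), 5 to 8 by sex and 22 to 44 by sex with the block (25, 22, 44 and 24 without litters 1 to 4). Fewer samples enter these fits, and where 1 library of a litter is left, it is assumed to vary like the others. Other causes were not tested. Scaling by library total moved the median of all genes by at most 0.08 (log2), in litter 4. Depth limits Mir17hg, at 33 to 79 counts, and leaves Miat without a level and Dnm3os, at 0 to 9 counts, untested after the filter.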
